A study of Mus musculus with 13 samples.

Results

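The Hox cluster genes were taken as every protein-coding gene of GENCODE release M21 (mm10) whose symbol is Hoxa, Hoxb, Hoxc or Hoxd followed by a number. This rule, which used no measured value, gave 39 genes of 21938 protein-coding genes, with 11 in the Hoxa cluster on chromosome 6, 10 in Hoxb on chromosome 11, 9 in Hoxc on chromosome 15 and 9 in Hoxd on chromosome 2. ESR1 (estrogen receptor α) ChIP-Seq peaks were counted in each gene body plus 10 kb on each side. These windows overlap within a cluster, so that neighbouring genes share peaks, and together they span 518 kb. The cells were primary skeletal muscle fibroblasts, called HAFs, from the lower abdominal muscle of male Aromhum mice, which carry a human aromatase transgene and so make estradiol from androgen. All 4 groups carry this transgene, were used at low passage and were kept without serum, and the labels give no age. The groups were vehicle (ethanol and DMSO), 10 nM estradiol (E2), 10 nM E2 with 100 nM of the ESR1 antagonist and degrader fulvestrant, and 100 nM fulvestrant alone, each with 3 libraries. The labelled time is 1 h, and by the study's methods fulvestrant or DMSO was given before E2 or ethanol. The labels do not say that the libraries of a group came from separate animals or cultures, so that p-values measure the spread between these libraries, which may be technical.

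Hox genes encode homeodomain transcription factors that specify position along the body axis. In each cluster the genes lie in the order of their paralog group, with the anterior (3′) genes used early and in the head and neck and the posterior (5′) genes used late and towards the tail, limb ends and genital tract. Fibroblasts of the adult keep a Hox code of the body site they came from. Hox proteins bind DNA together with the PBX and MEIS homeodomain cofactors, and ESR1 classically binds the estrogen response element (ERE), a palindrome whose arms GGTCA and TGACC are separated by 3 bases.

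The sequences below show what lay under the summits of the strongest recurrent Hox peaks. Each is the 201-base window around the summit in the library, of the 10 that did not stand apart, where its rank was the smallest share of the list's length, in the region with the best median rank of the Hoxa, Hoxb or Hoxc cluster, read from the plus strand of mm10. Capitals mark CpG dinucleotides.
Hoxa10 coding exon, chr6:52234018-52234218: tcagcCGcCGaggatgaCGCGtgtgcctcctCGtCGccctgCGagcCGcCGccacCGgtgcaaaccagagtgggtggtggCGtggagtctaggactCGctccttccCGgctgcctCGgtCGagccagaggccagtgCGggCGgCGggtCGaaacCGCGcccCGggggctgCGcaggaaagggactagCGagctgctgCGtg
Hoxb9, upstream of the gene, chr11:96271019-96271219: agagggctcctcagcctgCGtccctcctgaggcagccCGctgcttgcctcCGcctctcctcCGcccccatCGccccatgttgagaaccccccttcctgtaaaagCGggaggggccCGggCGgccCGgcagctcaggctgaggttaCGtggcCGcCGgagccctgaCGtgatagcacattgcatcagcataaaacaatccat
Hoxc9 intron, chr15:102977213-102977413: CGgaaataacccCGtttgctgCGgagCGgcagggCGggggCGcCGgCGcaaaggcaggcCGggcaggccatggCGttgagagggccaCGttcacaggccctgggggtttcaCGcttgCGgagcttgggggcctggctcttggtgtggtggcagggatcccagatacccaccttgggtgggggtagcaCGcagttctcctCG
The windows hold 25, 13 and 15 CpG in this order, and none holds an ERE with at most 1 mismatch over the 10 arm bases. No window is shown for Hoxd, whose best-ranked summit, at Hoxd3, lies beside an annotated UTR. For comparison, only 5 different EREs lay within 100 bp of any Hox summit, and these 2 were the ones found under peaks of 2 libraries. For the Hoxb6 intron these were E2 replicates 2 and 3. For the site beyond Hoxc4 they were E2 replicate 1 and fulvestrant replicate 2, the libraries that stood apart. Capitals here mark the ERE with its spacer.
Hoxb6 intron, chr11:96297456-96297516: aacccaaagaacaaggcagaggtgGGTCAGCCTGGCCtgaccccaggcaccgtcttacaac
Beyond the 3′ end of Hoxc4, chr15:103041171-103041231: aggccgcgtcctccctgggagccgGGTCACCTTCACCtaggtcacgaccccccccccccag

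The 12 peak lists held between 34293 and 104571 peaks. Relative depth, recovered from the background that each list implies, lay between 92% and 106% of the median library in 10 libraries but only 39.1% for E2 replicate 1 and 75.8% for fulvestrant replicate 2. These libraries also stood apart in sequence, with 59.4% and 27.9% of their summit windows repeat-masked against 5.57% to 7.79% in the other 10. Of 180 merged Hox regions, 75 were found in E2 replicate 1, fulvestrant replicate 2 or both and in no other library. Totals over the clusters that rest on these libraries are therefore given with and without them.

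ESR1 peaks that recurred over the Hox clusters formed compact blocks. Peaks of nearby positions were joined into regions, and 29 Hox regions recurred in at least 10 of the 12 libraries, 23 of them in all 12. Across the genome 7816 of 228284 regions, or 3.42%, were found in all 12 libraries, against 12.8% of the Hox regions. These shares were not matched for region width, and recurrent Hox regions were wider than other recurrent regions (median 3494 bp against 1958 bp). In Hoxa the main block ran from the outermost annotated Hoxa3 start, which lies between Hoxa6 and Hoxa7, to Hoxa10. No recurrent region had its summit at the promoters of Hoxa2, Hoxa4, Hoxa5 or Hoxa6. In Hoxb the recurrent regions ran from Hoxb9 to Hoxb2 over 86.1 kb, in Hoxc from Hoxc10 to Hoxc4 over 65.9 kb, and in Hoxd from Hoxd9 into Hoxd3 over 44.4 kb. In the 10 libraries that did not stand apart, 873 of 905 Hox peaks (96.5%) touched the spans from the first to the last recurrent region of the clusters, and in E2 replicate 1 and fulvestrant replicate 2 together 198 of 254 (78.0%) did. The spans took up 82.7 of 125 kb of window in Hoxa, 86.1 of 140 kb in Hoxb, 65.9 of 136 kb in Hoxc and 44.4 of 117 kb in Hoxd. The Hoxa span was wider than the main block and held a gap of 49.6 kb. As the spans were drawn from peaks of these same libraries, a high share inside them is partly built in.

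**Figure D1:**
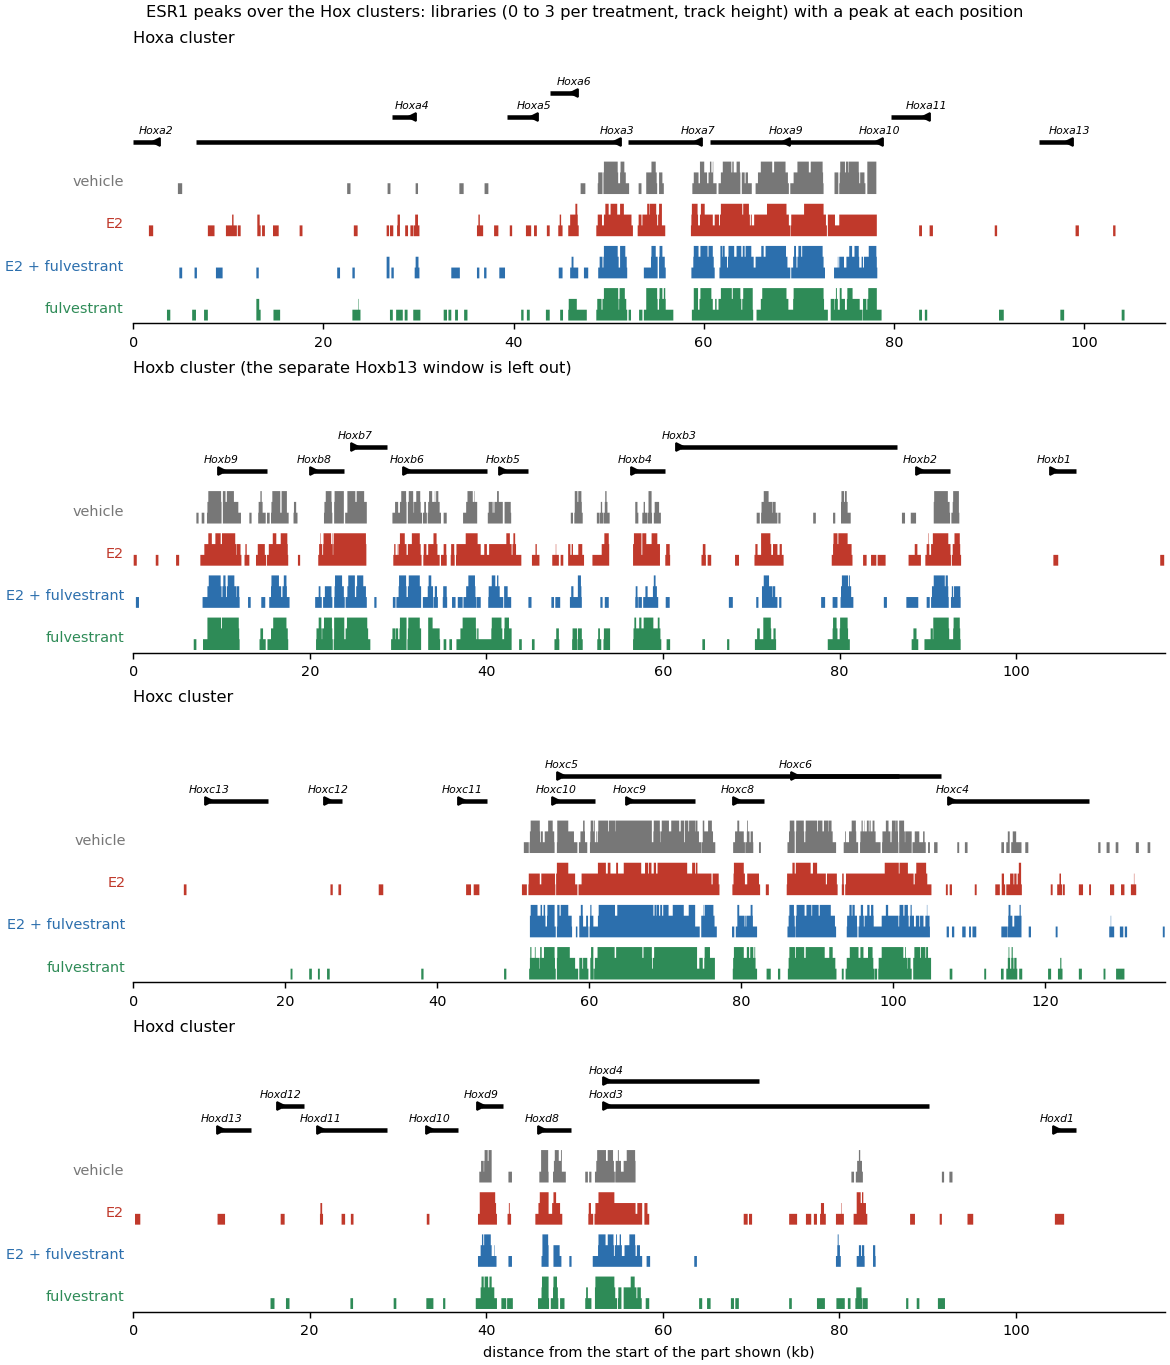
Positions of ESR1 peaks along the 4 Hox clusters. The x axis is the distance in kb from the start of the part shown, which leaves out the 3′ end of Hoxa and the Hoxb13 window, track height is the number of libraries of a treatment (0 to 3) with a peak at a position, and black bars are gene bodies with an arrowhead at the 5′ end. The recurrent regions, which lie in all 4 treatments by definition, sit in blocks. The stretches at Hoxa11 to Hoxa13, Hoxc11 to Hoxc13 and Hoxd10 to Hoxd13 are nearly empty.

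The 5′ ends of the blocks fell inside the posterior part of each cluster, and at the 3′ end Hoxb1 and Hoxd1 also lay outside. Paralog groups 9 and 10, the most anterior of the posterior genes, had a promoter peak (its summit at most 1 kb from an annotated start site) in all 12 libraries for 6 of 7 genes. These were Hoxa9, a regulator of blood stem cells, Hoxa10, which is needed for uterine receptivity, Hoxb9, Hoxc9, Hoxc10 and Hoxd9. Groups 11 to 13, which pattern the limb ends and the urogenital tract, had it for 0 of 9 genes. Among the 23 anterior genes, 7 had it, among them Hoxa3 and Hoxd3, which act in the neck and pharyngeal region, and Hoxc8, which acts in the trunk. At Hoxa3 and Hoxd3 the recurrent peak lay at the outermost annotated start of a long gene model. The Hoxa3 start lies between Hoxa6 and Hoxa7, and the Hoxd3 start beyond the 3′ end of Hoxd8. A region with its summit in a Hoxa3 coding exon, chr6:52169812-52170900, was found only in E2 replicate 1 and fulvestrant replicate 2. In all, 13 Hox genes (33.3%) had a promoter peak in all 12 libraries, against 27.3% of all protein-coding genes. Only Hoxb13, known from the prostate and tail end, and Hoxc13, known from the hair follicle, had no promoter peak in any library (5.13% of Hox genes against 31.7% of all genes).

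The remaining genes fell between these classes. Hoxb4, Hoxb5, Hoxb7, Hoxb8 and Hoxc5 had a promoter peak in 10 or 11 libraries, and Hoxa4, Hoxa6, Hoxb2, Hoxc4, Hoxc6 and Hoxd4 in 3 to 8. The other 13 genes had one in 1 or 2 libraries. Of these and the 2 without any, 14 had no promoter peak in the 10 libraries that did not stand apart, and Hoxb3 was the exception with 1. The genes Hoxa13, Hoxb1, Hoxb13, Hoxc13 and Hoxd1 had no peak anywhere in their window in those 10 libraries. Their only peaks came from E2 replicate 1 and fulvestrant replicate 2, for example 3 and 3 at Hoxa13 and 3 and 4 at Hoxc13.

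The number of peaks per gene window varied with gene length and place. Its mean over the 12 libraries had a median of 7.33 over the 39 Hox genes and of 2.08 over the 19639 genes with a peak in any library, and 30 Hox genes were above the latter. In Hoxa the highest mean was 15.0 peaks at Hoxa3, whose annotated body of 44.3 kb spans Hoxa4 to Hoxa6, and the lowest was 0.5 at Hoxa13. In Hoxb the means ran from 0.167 at Hoxb1, a hindbrain gene, to 13.6 at Hoxb6. In Hoxc they ran from 0.583 at both Hoxc12 and Hoxc13 to 24.3 at Hoxc5, whose gene model of 50 kb, set by a long non-coding transcript, takes in Hoxc9, Hoxc8 and Hoxc6, and which was at the 99.4th percentile of all genes. In Hoxd they ran from 0.167 at Hoxd1 to 9.50 at Hoxd3. The long gene models thus share most of their peaks with the genes they contain.

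**Figure D2:**
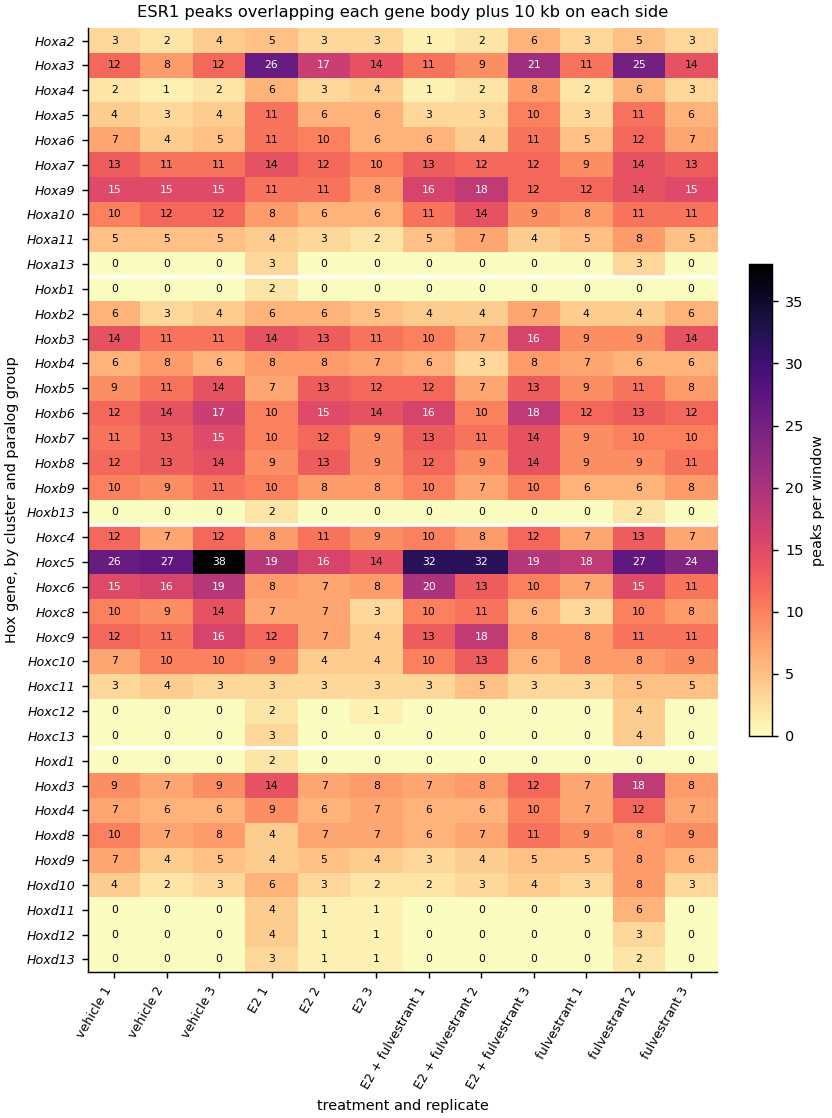
Number of ESR1 peaks overlapping the body plus 10 kb on each side of 38 Hox genes (rows, by cluster and paralog group) in each of the 12 libraries (columns), as a number and as colour. Posterior genes of groups 12 and 13, with Hoxb1 and Hoxd1, are at or near 0 except in E2 replicate 1 and fulvestrant replicate 2.

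Peak density was lower in the posterior than in the anterior territory of the clusters. Each base of the windows was given to its nearest gene body, which gave 203 kb to groups 9 to 13 and 315 kb to groups 1 to 8. The posterior territory held 13.2 ± 3.85 peaks per 100 kb and the anterior 22.1 ± 4.09 (mean ± SD, n = 12 libraries), with the posterior lower in 12 of 12 libraries (difference -8.92 per 100 kb, exact sign-flip permutation test, two-sided p = 0.000488, the smallest the test can give). The difference did not hold when the anterior genes were limited to groups 1 to 3 (difference -0.912, exact permutation p = 0.542) or when only peaks with −log10 q of at least 10 were kept (difference -0.781, exact permutation p = 0.106). It was -3.89 with gene bodies plus 1 kb before the start site as territory (exact permutation p = 0.0449) and -5.36 with the 30000 strongest peaks of each list. The posterior genes were not alike. Counted in gene windows, which overlap, the mean number of peaks per gene was 8.64 in groups 1 to 8, 8.51 in groups 9 and 10 and 1.42 in groups 11 to 13. The libraries share the genome and the cell type, and the test speaks only to how steadily they show the difference.

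Hoxd carried the sparsest binding and Hoxc the widest. Peak density was 19.2 ± 5.34 per 100 kb in Hoxa, 22.7 ± 3.59 in Hoxb, 20.6 ± 5.24 in Hoxc and 10.9 ± 5.20 in Hoxd (mean ± SD, n = 12). Hoxd was lower than Hoxa in 12 of 12 libraries (by 8.31), lower than Hoxb in 11 of 12 (by 11.8) and lower than Hoxc in 12 of 12 (by 9.71), each past the threshold by the exact sign-flip permutation test over 6 pairs of clusters (Benjamini-Hochberg adjusted p = 0.00146, 0.00195 and 0.00146). The 3 other pairs did not pass on density (adjusted p = 0.0908, 0.434 and 0.304 by the same exact test). The share of the window inside peaks, a measure added after the data were seen, was 29.0% ± 5.63 in Hoxc, 21.1% ± 4.99 in Hoxb, 19.0% ± 3.78 in Hoxa and 8.73% ± 3.24 in Hoxd. On this measure all 6 pairs passed the exact test. The closest pair, Hoxa and Hoxb, differed by 2.11 percentage points (adjusted exact p = 0.0146, Hoxb higher in 11 of 12 libraries). In the order of density, Hoxb, Hoxc and Hoxa were thus not told apart beyond their spread in all 12 libraries. Over the 10 libraries that did not stand apart, the difference between Hoxa and Hoxb was -5.34 per 100 kb, with Hoxa lower, and it passed (adjusted exact p = 0.00586). Hoxc held the widest merged region, of 18528 bp over Hoxc9.

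**Figure D3:**
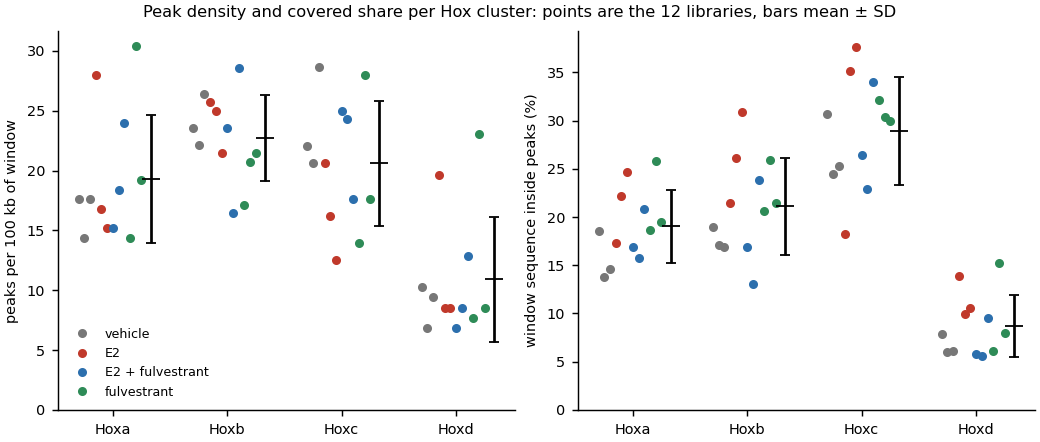
Peaks per 100 kb of window (left) and percent of window sequence inside peaks (right) for the 4 Hox clusters. Points are the 12 libraries coloured by treatment and bars are the mean ± SD. Hoxd is lowest on both, at 10.9 peaks per 100 kb and 8.73%, and Hoxc has the largest share inside peaks.

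The study asked how E2 and fulvestrant change ESR1 binding, and at the Hox clusters the number of peaks did not differ between treatments beyond the spread of the libraries. Vehicle libraries held 97, 85 and 109 Hox peaks and E2 libraries held 122, 88 and 76. With E2 plus fulvestrant there were 94, 89 and 109, and with fulvestrant alone 70, 132 and 88. All groups overlapped, with the highest value of E2 and of fulvestrant in the library that stood apart. E2 minus E2 plus fulvestrant was -2.00 (95.3 ± 23.9 against 97.3 ± 10.4, SD, n = 3 each, exact permutation p = 0.9, of which 0.1 is the smallest possible). Without E2 replicate 1 it was -15.3, and with peaks of −log10 q of at least 10 alone it was 15.0 (exact permutation p = 0.1). The differences from vehicle were -1.67 for E2, -0.333 for fulvestrant and 0.333 for E2 plus fulvestrant, and 6 libraries with E2 against 6 without differed by -0.500 (exact permutation p = 0.983). All 5 had an adjusted p of 1. When every list was limited to its 30000 strongest peaks, all 5 differences were below 0. They were -33.3 for E2 against vehicle (exact permutation p = 0.1, as small as 3 against 3 allow, adjusted to 0.25), -14.7 for E2 against E2 plus fulvestrant, -15.0 for fulvestrant and -18.7 for E2 plus fulvestrant against vehicle, and -18.5 for 6 with E2 against 6 without (exact permutation p = 0.0541, adjusted p = 0.25).

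The length of Hox sequence inside peaks gave another order than the number, since a wide peak counts once in the number but in full in the length. It was 101, 81.4 and 83.4 kb in vehicle, 92.7, 124 and 138 kb in E2, 87.4, 75.7 and 117 kb in E2 plus fulvestrant and 103, 128 and 104 kb in fulvestrant. The E2 libraries overlapped those of vehicle and of E2 plus fulvestrant, and the fulvestrant libraries were all above vehicle. The difference was 24.8 kb for E2 against E2 plus fulvestrant, 29.5 kb for E2 against vehicle and 23.3 kb for fulvestrant against vehicle (adjusted exact permutation p = 0.333 for each, unadjusted p = 0.2, 0.2 and 0.1). Without E2 replicate 1 and fulvestrant replicate 2 these were 37.4, 42.2 and 15.2 kb. The length of all sequence inside peaks also differed, with means of 23210 kb in vehicle, 49007 kb in E2, 29620 kb in E2 plus fulvestrant and 31856 kb in fulvestrant. The Hox share of it therefore ran the other way, at 0.396% ± 0.0706 in vehicle, 0.245% ± 0.0626 in E2, 0.325% ± 0.0724 in E2 plus fulvestrant and 0.361% ± 0.0528 in fulvestrant (SD, n = 3 libraries each), with every E2 library below every vehicle library (exact permutation p = 0.1, as small as 3 against 3 allow, adjusted to 0.25). The median Hox peak was 732 and 933 bp wide in E2 replicates 2 and 3 and 466 bp in replicate 1, and the median of all peaks was 459, 528 and 372 bp in these libraries.

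As a share of the whole list, Hox peaks were lowest with E2, without a call after adjustment. They made up 12.4 ± 1.82 per 10000 peaks of the E2 lists, 19.0 ± 3.49 of the E2 plus fulvestrant lists and 23.7 ± 4.34 of the vehicle lists, with every E2 library below every library of both other groups (unadjusted exact permutation p = 0.1 for each, the smallest possible, and adjusted p = 0.167). Without E2 replicate 1 the difference from E2 plus fulvestrant was -6.24 against -6.59 with it. Without repeat-masked peaks it was -2.08 (exact permutation p = 0.7) and with the 30000 strongest peaks -4.83 (exact permutation p = 0.2), and under both the groups overlapped. The E2 lists were the longest on average, at 78151 peaks against 52675 with E2 plus fulvestrant, while the number of Hox peaks was about the same. The number of Hox genes with a promoter peak was 34, 21 and 21 in the E2 libraries, 18, 19 and 24 in those of E2 plus fulvestrant, 18, 19 and 20 in vehicle and 21, 30 and 21 in fulvestrant. The difference of 5 genes between E2 and E2 plus fulvestrant (exact permutation p = 0.5) was 0.667 genes without E2 replicate 1.

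**Figure D4:**
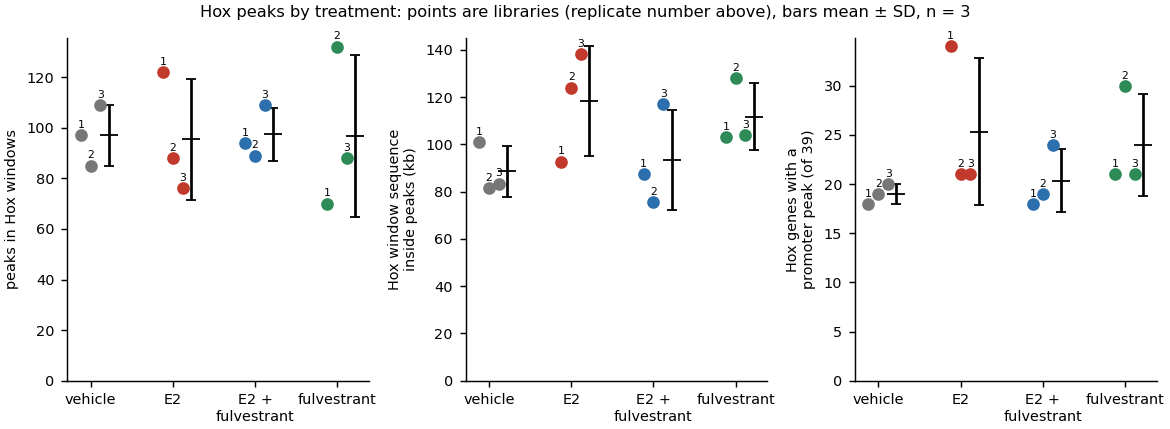
Hox peaks, kb of Hox window sequence inside peaks and Hox genes with a promoter peak, by treatment. Points are libraries with the replicate number above them, and bars are the mean ± SD of 3 libraries. Peak numbers overlap in all treatments (70 to 132), and E2 replicate 1 and fulvestrant replicate 2 hold the most peaks and the most promoter genes.

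Gene by gene, no Hox gene passed a test of 6 libraries with E2 against 6 without. The smallest exact permutation p among the 39 was 0.0628, and all 39 had an adjusted p above the threshold over the 19639 genes. Of all genes 2.48% reached an unadjusted p below 0.05 with more peaks with E2 and 0.173% with fewer, and 0 genes passed after adjustment, while 521 had an unadjusted p below 0.05. Among the Hox genes 16 had more peaks on average with E2, 18 fewer and 5 the same number.

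Between E2 and E2 plus fulvestrant, 3 Hox genes had more peaks in every E2 library (background 4.22% of genes) and 3 had fewer (background 0.652%). Hoxd11, Hoxd12 and Hoxd13, which pattern the limb ends, held 1 shared peak each in E2 replicates 2 and 3, 3 or 4 in replicate 1, and 0 in all E2 plus fulvestrant and vehicle libraries. The shared peak lay upstream of Hoxd11 at chr2:74679373-74679719 and ranked 20229 at best, so that in these replicates the 3 genes make up 1 observation. The peaks of replicate 1 lay elsewhere in the windows. Hoxa9 held 11, 11 and 8 peaks with E2 against 16, 18 and 12 with E2 plus fulvestrant. Hoxa10, whose window overlaps that of Hoxa9, held 8, 6 and 6 against 11, 14 and 9. Hoxc6, a trunk gene, held 8, 7 and 8 against 20, 13 and 10. At these 3 genes the kb inside peaks did not separate the groups. On that measure 9 Hox genes were higher in every E2 library (background 13.6%) and 0 were lower (background 0.0764%), among them Hoxb3 with 11.9, 12 and 15.6 kb against 6.97, 5.24 and 10.9 kb and Hoxb4 with 4.83, 5.5 and 7.24 kb against 2.5, 1.22 and 4.54 kb.

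Against vehicle, Hox genes separated in both directions in number but upward only in length. Of the Hox genes, 6 had more peaks in every E2 than in every vehicle library (background 8.88%) and 6 had fewer (background 0.494%). Those with more, beyond the Hoxd11 to Hoxd13 peak, were Hoxa3 (26, 17 and 14 against 12, 8 and 12), Hoxa4 (6, 3 and 4 against 2, 1 and 2) and Hoxa5, a lung gene (11, 6 and 6 against 4, 3 and 4), whose windows overlap. Those with fewer were Hoxa9, Hoxa10, Hoxa11, Hoxc5, Hoxc6 and Hoxc8, led by Hoxc5 with 19, 16 and 14 against 26, 27 and 38. The windows of Hoxa9 to Hoxa11 overlap, and that of Hoxc5 takes in those of Hoxc6 and Hoxc8. The background genes held fewer peaks (median of the means 2.08, against 7.33 for Hox genes). They thus had less room to separate downward. The kb inside peaks was higher in every E2 library for 16 Hox genes (background 19.9%) and lower for 0 (background 0.0204%). With fulvestrant alone 3 genes had fewer peaks than in every vehicle library (background 0.397%), the neighbours Hoxb7, Hoxb8 and Hoxb9, and 0 had more (background 2.96%). Hoxb7 held 9, 10 and 10 against 11, 13 and 15, and its kb inside peaks were higher, at 13.4, 13.6 and 12.2 against 12.1, 10.7 and 10.1. The kb inside peaks was higher in every fulvestrant library for 9 Hox genes (background 6.7%) and lower for 0 (background 0.28%). Between E2 plus fulvestrant and vehicle 0 Hox genes separated in either direction in number (background 3.18% and 0.448%) or in kb (background 4.08% and 0.626%). These 3 treated groups were compared with the same vehicle libraries. Neighbouring Hox genes share peaks, so that these counts of genes overstate the number of separate places.

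Peak presence gave the same picture at single regions. No Hox region was present in every E2 and absent from every E2 plus fulvestrant library (background 0.207% of 228284 regions), and none was the reverse (background 0.0732%). Without E2 replicate 1, and with the regions merged again, the first count was 4 of 148 Hox regions (2.70%), beside 2.13% of all regions. The ones that kept their outline lay upstream of Hoxd11 (above), beyond Hoxb5 at chr11:96306542-96307362 and beyond Hoxc4 at chr15:103042325-103043357, chosen here after their values were seen, and their best ranks in any library were 20229, 28492 and 26648. No Hox region separated E2 from vehicle (background 0.344%, and 0.0162% in reverse) or fulvestrant from vehicle (background 0.144%, and 0.0924% in reverse) by presence. One lay in every E2 plus fulvestrant and in no vehicle library (background 0.569%, and 0.0434% for the reverse, where no Hox region was found), in a Hoxd3 intron at chr2:74737823-74738832, and it was also found in 2 E2 libraries and 1 fulvestrant library.

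The strongest Hox regions were found in all 12 libraries. The best median rank, where 1 is the strongest peak of a library, was 728 for the Hoxc9 region at chr15:102969632-102988159, followed by 886 for the region past the 3′ end of Hoxc8 at chr15:102997013-103003729, whose summit lay in the long gene models of Hoxc5 and Hoxc6 but in no basic transcript, 968 for Hoxa9 to Hoxa10 at chr6:52220997-52235370, 1079 for Hoxd3 at chr2:74709442-74715907 and 1168 for Hoxd8 at chr2:74703766-74707246. Hoxc10 (1600) was the third of its cluster. In Hoxb the leaders were the Hoxb9 region (1680), the Hoxb8 region (1864) and the region before Hoxb6 (3180), and the Hoxa3 and Hoxa7 promoter regions (1840 and 3021) completed Hoxa, with Hoxd9 (8268) in Hoxd. Of the 29 recurrent regions 16 had their summit within 1 kb of a Hox transcription start site. By the basic transcripts of the annotation their summits lay in a Hox coding exon in 8, a Hox intron in 7, a Hox UTR in 3, only in another gene such as a Hox antisense RNA in 4 and outside any of these transcripts in 7.

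Heights were compared as the fragments under the strongest peak of a region, recovered from its fold and p-value and divided by the library's median over the regions found in all 12 libraries. At the region past Hoxc8 this relative height was 2.02, 1.77 and 1.71 in vehicle, 1.64, 1.74 and 1.92 in E2, 2.11, 1.73 and 1.65 in E2 plus fulvestrant and 1.91, 1.77 and 1.90 in fulvestrant, so that all groups overlapped. At the Hoxa9 to Hoxa10 region it was 1.84, 1.40 and 1.37 in E2 against 1.76, 1.3 and 1.3 in E2 plus fulvestrant. The median difference between E2 and E2 plus fulvestrant was 0.09 on the log2 scale over the 20 Hox regions that could be measured in every library and -0.01 over all 6858 such regions. The Hoxc9, Hoxd3 and Hoxd8 regions, among the strongest, are left out. Their fragments could not be solved in E2 replicate 1, as this needs a −log10 p of at most 100. In 3 of the 20, relative height was higher in every E2 library (background 4.67%), and in 0 it was lower (background 4.16%). These 3 lay in the Hoxb2 to Hoxb4 stretch, in the Hoxb4 gene (1.13, 0.851 and 0.783 against 0.730, 0.541 and 0.757), the Hoxb3 intron (0.978, 1.23 and 1.33 against 0.865, 0.973 and 0.730) and Hoxb2 (1.67, 1.11 and 1.25 against 1.00, 1.05 and 0.838), with log2 differences of 0.45, 0.46 and 0.46. The margins between the groups were small in all 3, and smallest in the Hoxb3 intron, where the lowest E2 value was 0.978 and the highest E2 plus fulvestrant value 0.973. In the 10 libraries that did not stand apart, 3 of the 20 were again higher with E2 (background 9.8%) and 0 lower (background 9.27%). There the median log2 difference over the 20 was 0.03.

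Against vehicle the relative heights did not move one way. With E2, 1 of the 20 Hox regions was higher in every library (background 3.54%), the Hoxb3 intron, and 2 were lower (background 7.17%), the Hoxa3 promoter region and one between Hoxb9 and Hoxb8. In the 10 libraries that did not stand apart these counts were 1 (background 10.8%) and 5 (background 15.2%), and the median log2 difference was -0.07 over the 20 against 0.01 with all libraries. The Hoxa3 value of E2 replicate 1 was 0.400 against 1.32 and 1.22 in the other E2 libraries and 1.43, 1.46 and 1.45 in vehicle. With fulvestrant 1 was higher (background 4.07%) and 1 lower (background 5.92%), and with E2 plus fulvestrant 0 were higher (background 5.91%) and 3 lower (background 6.58%).

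EREs were rare at Hox summits. An ERE with at most 1 mismatch in its arms lay within 100 bp of the summit in 7 of 1159 Hox peaks (0.604%, 95% Wilson interval 0.293% to 1.24%) and in 13202 of 685664 other peaks (1.93%, interval from 1.89% to 1.96%). Without E2 replicate 1 and fulvestrant replicate 2 these shares were 0.552% and 2.33%. In windows of the same length placed 2 kb away the shares were 0.777% (interval 0.409% to 1.47%) beside Hox peaks and 0.670% beside other peaks. Other ESR1 peaks thus held EREs more often than sequence beside them, and for Hox peaks no such difference was detectable. The windows 2 kb away lay on 1 side and were not kept clear of other peaks. Recurrent Hox regions were wider than other recurrent regions (median 3494 bp against 1958 bp), so that the comparison is not alike for both sets. How many of these windows fell inside a peak was not counted. These intervals cover counting error only, and peaks of different libraries over 1 site are counted each time. The shares were not matched for promoters or CpG. Over the libraries a median of 36.6% of Hox peaks and 25.1% of all peaks had their summit within 1 kb of a coding start site. Mean CpG per summit window had medians of 8.46 and 5.54. By region, 0 of the 29 recurrent Hox regions had an ERE at their strongest summit, which with a Wilson upper bound of 11.7% cannot be told from the 3.45% of 15858 other recurrent regions. No Hox region held an ERE in 3 or more libraries. The 7 peaks came from 3 E2 and 2 fulvestrant libraries, at most 2 in each. Those of the Hoxb6 intron printed above were found in E2 replicates 2 and 3 and ranked 53169 and 33545, with a fold over background of 2.36 and 3.09, and their EREs lay 94 and 93 bp from the summits.

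**Figure D5:**
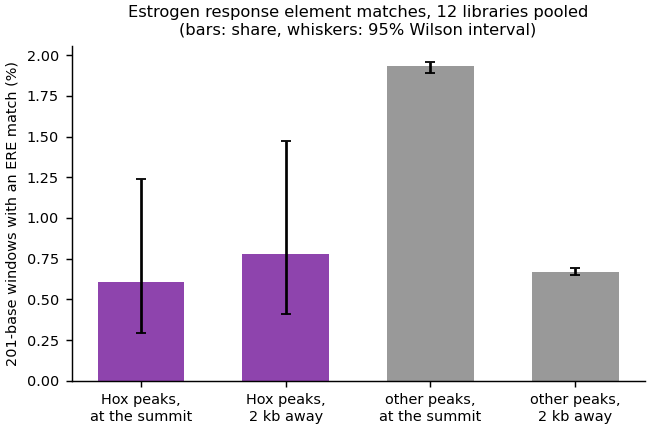
Percent of 201-base windows that hold an ERE with at most 1 mismatch, at the summits of Hox peaks and of all other peaks and in windows 2 kb away, with the 12 libraries pooled. Whiskers are 95% Wilson intervals. The windows 2 kb away were not kept clear of other peaks. Hox summits (0.604%) do not stand above sequence 2 kb away (0.777%), while other summits (1.93%) stand above theirs (0.670%).

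Hox summits were rich in CpG. The mean number of CpG in the 201-base summit window was 12.4 at the strongest summits of the 29 recurrent Hox regions and 9.40 at those of the other recurrent regions, and GC content was 60.5% and 56.3%. Recurrent Hox regions were also wider, with a median of 3494 bp against 1958 bp, and a like share had its summit within 1 kb of a coding transcription start site (55.2% and 49.0%). The 86 Hox peaks found only in E2 replicate 1 and fulvestrant replicate 2 had a mean of 11.9 CpG, against 8.13 over all Hox peaks of the other 10 libraries, and 5.81% were repeat-masked. Homeodomain and AP-1 motifs were not more frequent at Hox summits. TGATNNAT on either strand, a PBX and HOX site, lay in 4.66% of Hox and 7.43% of other summit windows. TGANTCA, the AP-1 site, lay in 3.45% and 6.77%. These motif shares were not matched for promoters or CpG.

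The partners, regulators and neighbours of the Hox genes were counted in the same way. Of 9 cofactor genes of the PBX, MEIS and PKNOX families, which encode the homeodomain partners of Hox proteins, 4 had a promoter peak in 12 libraries, among them Meis2. Over all protein-coding genes this share was 27.3%, which stands beside the lists below too. Over the 9 genes the median of the mean peak numbers was 9.42. In number of peaks, 2 of the 9 were above E2 plus fulvestrant in every E2 library (Pbx3 and Pbx4) and 0 below, beside the 4.22% and 0.652% of all genes. Of 15 regulators of Hox clusters (Cdx, Polycomb and trithorax members, Ctcf and retinoic acid receptors), 7 had a promoter peak in 12 libraries. The Polycomb genes Eed, Suz12 and Rnf2 were among these 7, while Bmi1, Ring1 and Cbx2 had one in 11 libraries and Ezh2 in 9. Of the 15, 3 were above in every E2 library (Cdx1, Cbx2 and Rarb) and 0 below, beside the same 4.22% and 0.652%. Of 10 genes next to the clusters only Mtx2, beyond Hoxd1, had a promoter peak in 12 libraries. Evx1 and Evx2, the homeobox genes beyond Hoxa13 and Hoxd13, had means of 0.750 and 0.250 peaks. Skap1 was the 1 neighbour above in every E2 library, with 0 below, again beside 4.22% and 0.652% of all genes.

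ESR1 peaks at marker genes bore on the cell type only in part, since a peak does not measure expression. Of 7 fibroblast markers Pdgfra, Col1a1 and Col1a2 had a promoter peak in 12 libraries, beside 27.3% of all protein-coding genes. Each of the 7 had one in at least 6. Of 5 muscle lineage markers, 4 leukocyte markers and 3 endothelial markers none had one in all 12, and Myod1 and Myf5, which define muscle precursors, had no peak in any library. Outside the libraries that stood apart, 1 of these 12 genes, Cd68, had a promoter peak. The fibroblast, muscle and leukocyte lists had 0 genes above and 0 below in every E2 library against E2 plus fulvestrant. The endothelial list had 1 above (Pecam1) and 1 below (Kdr). Over all genes 4.22% were above and 0.652% below.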

How the data were processed

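ESR1 ChIP-Seq had been performed on 12 libraries, 3 for each of 4 treatments, and an input library was not analysed here. Per the study's methods and the submitters' notes, the authors used Trimmomatic 0.39 for trimming, Bowtie2 for alignment against mm10, Picard 2.21.4 for removal of duplicates and MACS2 for peaks, called in each library on its own. The deposited narrowPeak lists give a display score (not used), a fold enrichment ratio over background, −log10 p and −log10 q, and the summit offset, each as the authors' caller wrote it. By the study's methods, peaks in blacklisted regions were filtered out, and whether the deposited lists are from before or after this step is not given in the sources used here. The study's counts over consensus peaks were not used here.

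From these values, a peak was counted in a window with an overlap of at least 1 bp. Peaks of all libraries that overlapped were merged into regions. Fragments and local background were solved from fold and p (whole within 0.05 for 100% of peaks with −log10 p of at most 100), and relative depth is the lowest background per base as a percent of the median library; absolute depth is unknown. Treatments were compared with two-sided exact permutation tests (924 arrangements for 6 against 6) and clusters with sign flips over 12 libraries (4096), with Benjamini-Hochberg adjustment within each family. The permutation tests of 6 against 6 and 3 against 3 libraries were tested on simulated data. Sequence came from the RefSeq copy of mm10. Python 3.11.15, numpy 2.4.6, pandas 2.3.3 and matplotlib 3.10.9 were used.

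The Hox members, gene lists and rules were chosen with earlier results of these data known. By rule the text accounts for all 39 genes by counts (some named items of this rule are not reported here) and names, per cluster, the genes with the most and fewest peaks and the 3 regions of best median rank in at least 10 libraries, genes with a promoter peak in 12 or 0 libraries, up to 5 genes per direction whose libraries do not overlap, and regions that hold an ERE or separate treatments. Replicate numbers gave no sign that they pair the libraries, which with 3 libraries per group cannot exclude a shared batch (see the replicate block in the closing section). By the study's methods batch effects were removed from its own counts with limma, and the labels name no batch. Alternatives were q of at most 0.05, −log10 q of at least 10, the 30000 strongest peaks, other windows, no repeat-masked peaks, other territories and merging, and leaving out libraries.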

Additional observations from a re-analysis of the deposited data

Results flagged for a closer look

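The effect of E2 on the length of Hox sequence inside peaks, a measure added after the data were seen, was set against that with fulvestrant present, and the difference did not pass after adjustment. E2 minus vehicle exceeded E2 plus fulvestrant minus fulvestrant by 48.0 kb (exact permutation test over 369600 assignments of the 12 libraries to the 4 groups, two-sided p = 0.0368), and over the 3 Hox measures tested in this way the Benjamini-Hochberg adjusted p was 0.11. The same contrast was -2.33 for the number of Hox peaks (exact permutation p = 0.922) and 10.0 for Hox genes with a promoter peak (exact permutation p = 0.0931). Without E2 replicate 1 and fulvestrant replicate 2 the contrast was 52.7 kb, -33.3 Hox peaks and 2.67 promoter genes, and without E2 replicate 1 alone 60.7 kb, -15.7 peaks and 5.67 genes. These values have no test. Shuffling all 12 libraries over the 4 groups assumes that no treatment had any effect. The p-values of the contrast therefore cannot decide whether the effect of E2 differs with fulvestrant present. Peak width in E2 replicates 2 and 3 moved with the length, and its part in the result was not tested. Outlying samples were not tested within groups, since the gap test used needs at least 4 samples. The libraries set apart above by depth and repeat content were described without a test.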

How the results depend on the processing

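The number of Hox peaks gave no call in any comparison or alternative, and the sign of its differences was not stable, although all 5 were below 0 with the 30000 strongest peaks. E2 minus E2 plus fulvestrant was 3.67 with q of at most 0.05 and 15.0 with −log10 q of at least 10, and leaving out 1 library at a time gave -15.3 to 7.67. E2 minus vehicle was 3 and 11 under the same cutoffs, -33.3 with the 30000 strongest peaks and -15.0 to 8 leaving out 1 library. Fulvestrant minus vehicle was 7 with −log10 q of at least 10, 1 in gene bodies alone, 0.333 with 3 kb on each side, 1.33 without repeat-masked peaks, and -18.0 to 13 leaving out 1 library. E2 plus fulvestrant minus vehicle was -0.667 and -4.00 under those cutoffs, -18.7 with the 30000 strongest peaks and -5.67 to 6.33 leaving out 1 library. For 6 with E2 against 6 without it was 1.17 with q of at most 0.05, 0.667 in gene bodies alone, 0.167 without repeat-masked peaks, 1.40 without E2 replicate 1 and fulvestrant replicate 2, and -5.87 to 6.53 leaving out 1 library. For the kb inside peaks, added after the data were seen, E2 plus fulvestrant minus vehicle was -1.31 with −log10 q of at least 10, -4.64 with the 30000 strongest peaks and -6.94 to 13.5 leaving out 1 library, and 6 with E2 against 6 without was -2.75 with the 30000 strongest peaks, 13.6 without E2 replicate 1 and fulvestrant replicate 2, and -0.921 to 11.5 leaving out 1 library. The posterior deficit weakened to -0.781 with −log10 q of at least 10 and to -0.912 with anterior as groups 1 to 3, shrank to -3.89 with gene bodies plus 1 kb as territory and to -5.36 with the 30000 strongest peaks, and kept its call otherwise. The difference of E2 from E2 plus fulvestrant in Hox peaks per 10000 shrank from -6.59 to -2.08 without repeat-masked peaks. The lower density of Hoxa than Hoxb passed the threshold with the 30000 strongest peaks (-4.21), gene bodies alone (-9.38), 3 kb on each side (-6.04) and without E2 replicate 1 and fulvestrant replicate 2 (-5.34), with -4.66 to -2.98 leaving out 1 library, where only the omission of fulvestrant replicate 2 (-4.66) passed. The covered share of these clusters differed by -0.045 with −log10 q of at least 10 and no longer passed. Hox regions that every E2 and none of the E2 plus fulvestrant libraries held numbered 4 of 35 with −log10 q of at least 10 (11.4%, beside 2.58% of all regions), 4 without E2 replicate 1 and fulvestrant replicate 2 (3.54% beside 2.96%), 1 with peaks within 200 bp merged (0.709% beside 0.231%), 7 when 2 of 3 E2 libraries sufficed (3.89% beside 2.13%), and 0 to 4 leaving out 1 library, with 4 (2.70% beside 2.13%) without E2 replicate 1. The cause of these shifts was not tested. With the replicate number as a block, E2 minus E2 plus fulvestrant was -2.00 Hox peaks (exact sign-flip p = 0.75) and no call changed; 3 pairs cannot pass, and same-numbered libraries did not deviate together, with correlations of their deviations over genes between -0.461 and 0.342, over 0.1 in 3 of 18 pairs.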
